A study of Mus musculus with 12 samples.

Results

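Gdf15, Fgf21 and Adm2 encode secreted hormones that are known to be induced by cellular stress. Their transcripts were followed in wild-type mouse hearts and in hearts with a knockout of Ptcd1, which encodes a mitochondrial protein. The 3 genes were taken by symbol from the 51911 features of the deposited count tables. Each has a row in the tables of both treatments. The other groups of genes given with them are their receptors, their relatives, the enzymes that mature them, and the stress factors known to act on them.

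RNA from whole hearts was sequenced after depletion of cytoplasmic ribosomal RNA, in 12 libraries that form 4 groups of 3. The groups are Ptcd1 knockout (KO) hearts without treatment, wild-type (WT) hearts without treatment, KO hearts whose RNA was modified with CMC, and WT hearts whose RNA was modified with CMC. CMC is a carbodiimide that marks pseudouridine in RNA, and per the labels' protocols it was applied to isolated RNA, not to the animals. The sources used here do not give the age, sex or strain of the mice, the knockout allele or any promoter that drives a recombinase, and they do not state whether replicates are separate animals or whether CMC and untreated libraries of one number share a heart. Each p-value therefore measures the spread between these libraries, which may be technical.

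Libraries held 10389398 to 12462093 counts, of which 2683284 to 3187748 fell in nuclear genes, since mitochondrial transcripts took 73.0% ± 0.244 in untreated KO, 72.5% ± 0.395 in untreated WT, 75.2% ± 0.380 in CMC KO and 71.2% ± 1.04 in CMC WT libraries (SD, n = 3 each). Ptcd1 itself had 64 counts over the 3 untreated KO libraries and 223 over the 3 untreated WT libraries, a log2 fold change of -1.93 with an SE of 0.19 (edgeR adjusted p = 3.08e-19). Among the WT libraries with CMC, replicate 3 stood somewhat apart, with a scatter around counting error of up to 2.43 times in pairs that include it. Pairs of KO libraries with CMC reached at most 1.36, and pairs of untreated libraries at most 1.21, which is near counting error. The defining markers of cardiomyocytes were present in all libraries.

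GDF15 is a distant member of the transforming growth factor beta superfamily that acts on the hindbrain receptor GFRAL, with RET as its signalling partner, and lowers appetite. FGF21 is an endocrine fibroblast growth factor made chiefly by the liver, and it needs the co-receptor beta-klotho (Klb) beside an FGF receptor. ADM2, also called intermedin, is a calcitonin family peptide that dilates blood vessels through the calcitonin receptor-like receptor (Calcrl) and its partners, the RAMP proteins. All of these genes are known targets of ATF4, the transcription factor of the integrated stress response, which defects of mitochondrial translation can switch on.

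The genes lie on 3 chromosomes of the mm10 genome. Gdf15 (ENSMUSG00000038508.7) spans chr8:70629393-70632456 on the minus strand, Fgf21 (ENSMUSG00000030827.5) chr7:45613886-45615490 on the minus strand, and Adm2 (ENSMUSG00000054136.5) chr15:89322972-89324728 on the plus strand. Each has 3 exon blocks, and the exonic length is 1852 bases for Gdf15, 951 for Fgf21 and 1043 for Adm2. No annotated gene overlaps any of them on either strand, so their reads are not shared with an overlapping or antisense partner.

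The 250 bases before each RefSeq start of the 3 genes (GRCm38.p6, printed 5′ to 3′ on the strand of the gene) are shown because the transcripts rose together in KO hearts. Capitals mark matches, on either strand, to the C/EBP-ATF response element (CARE) TGATGNAA, which ATF4 pairs bind, the cyclic AMP response element TGACGTCA, the AP-1 site TGANTCA, the E-box CACGTG and the TATA box TATAAA.
Fgf21, chr7:45615491-45615740, minus strand: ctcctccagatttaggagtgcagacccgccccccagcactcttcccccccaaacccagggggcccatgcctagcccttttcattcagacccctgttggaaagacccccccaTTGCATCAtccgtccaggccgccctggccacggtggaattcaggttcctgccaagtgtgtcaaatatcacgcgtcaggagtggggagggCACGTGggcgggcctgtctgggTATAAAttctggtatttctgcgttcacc
Gdf15, start 1, chr8:70632457-70632706, minus strand: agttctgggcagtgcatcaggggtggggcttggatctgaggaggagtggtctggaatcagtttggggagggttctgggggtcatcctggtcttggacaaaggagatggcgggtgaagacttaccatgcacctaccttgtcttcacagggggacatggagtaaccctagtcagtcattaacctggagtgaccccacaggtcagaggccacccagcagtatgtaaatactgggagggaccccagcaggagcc
Gdf15, start 2, chr8:70632096-70632345, minus strand: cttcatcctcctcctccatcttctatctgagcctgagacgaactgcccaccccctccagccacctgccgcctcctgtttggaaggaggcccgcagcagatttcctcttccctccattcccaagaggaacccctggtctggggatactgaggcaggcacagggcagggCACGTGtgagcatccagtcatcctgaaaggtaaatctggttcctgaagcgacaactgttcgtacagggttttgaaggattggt
Adm2, chr15:89322470-89322719, plus strand: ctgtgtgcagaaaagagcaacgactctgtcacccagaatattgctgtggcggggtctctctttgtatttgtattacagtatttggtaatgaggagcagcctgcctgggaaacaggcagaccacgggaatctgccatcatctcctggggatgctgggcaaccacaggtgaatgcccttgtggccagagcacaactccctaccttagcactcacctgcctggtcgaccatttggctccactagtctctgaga

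The Fgf21 promoter held 3 matches. The CARE match, TTGCATCA on the printed strand, lay at -139 to -132 from the start, the E-box at -50 to -45 and the TATA box at -28 to -23. The E-box and the CARE did not overlap. Of 32851 RefSeq promoters of this length, 3.45% held a CARE match, 1.55% a cyclic AMP response element, 6.75% an AP-1 site, 6.02% an E-box and 12.4% a TATA box.

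The first Gdf15 start had 0 matches to these letters. The second, 361 bases downstream, had an E-box at -83 to -78. The Adm2 window had 0 matches and ends at a RefSeq start that lies 252 bases upstream of the gene as counted. Absence of a match says only that these letters are not in this window.

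Gdf15, the appetite hormone, was counted 280, 346 and 313 times in the untreated KO libraries, against 0, 1 and 0 times in the untreated WT libraries. The groups did not overlap, and a single read stood for all WT signal. Over the group this gave 939 counts in KO (95% exact Poisson interval 880 to 1001) and 1 in WT (0.0253 to 5.57). The ratio of these sums was 853, with a 95% counting interval of 153 to 33713. Without WT replicate 2, which held the only read, the ratio of Gdf15 to the floor was 191. In edgeR's quasi-likelihood test across all genes the log2 fold change was 9.30 with an SE of 0.28 (adjusted p = 2.36e-92, Benjamini-Hochberg). With 1 read in WT that size depends on the prior count, and its SE implies a range far narrower than the counting interval.

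Fgf21 was counted 33, 35 and 42 times in the untreated KO libraries, against 0 in each of the 3 untreated WT libraries. Its range in KO lay wholly above that in WT, with fewer reads than Gdf15 had. The 110 KO counts (90.4 to 133) were at least 33.3-fold higher than the floor of 3 counts over the WT group, where 0 counts allow up to 3.69. The fitted log2 fold change was 8.13 with an SE of 0.70 (edgeR adjusted p = 3.90e-24), a size that depends on the prior count since WT is at 0.

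Adm2, the vasodilator peptide, was counted 29, 18 and 25 times in the untreated KO libraries, against 0 in each of the 3 untreated WT libraries. It was the least counted of the genes, and again no WT library reached any KO library. The 72 KO counts (56.3 to 90.7) were at least 21.8-fold higher than the floor of 3 counts over the WT group. The fitted log2 fold change was 7.52 with an SE of 0.80 (edgeR adjusted p = 2.62e-17), again dependent on the prior count.

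In the libraries with CMC the hormone genes again separated KO from WT. Gdf15 was counted 332, 320 and 279 times in KO libraries with CMC, against 0, 0 and 1 times in WT libraries with CMC, a ratio of 953 (171 to 37669). Fgf21 was counted 34, 29 and 41 times in KO libraries with CMC, against 1, 0 and 0 times in WT libraries with CMC, a ratio of 106 (18.7 to 4243). Adm2 was counted 26, 28 and 34 times in KO libraries with CMC, against 0 in all 3 WT libraries with CMC. Its KO sum was 30.0-fold higher than the floor, with a counting interval that began at 23.9. Without the WT library that held the only read, the ratios to the floor were 215 for Gdf15 (without replicate 3) and 23.8 for Fgf21 (without replicate 1). None of the KO ranges touched a WT range. The edgeR log2 fold changes were 9.43 with an SE of 0.27 for Gdf15 (adjusted p = 4.00e-23), 6.28 with an SE of 0.56 for Fgf21 (adjusted p = 6.05e-11) and 7.90 with an SE of 0.72 for Adm2 (adjusted p = 2.02e-10). These sizes again depend on the prior count, and the SEs do not carry the full counting error of WT groups at 0 or 1 read.

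All 3 hormone genes were therefore called higher in KO in both comparisons. Called higher were 29.2% of the genes tested in untreated libraries (3571 of 12228) and 27.1% in CMC libraries (3292 of 12144). Every KO library lay above every WT library for 31% of tested genes without treatment and for 29.2% with CMC. The hormone genes passed the filter on low counts through their KO libraries alone, so that being called carries little by itself, and the sizes and the counts per library are the result. With 3 libraries against 3, the exact two-sided permutation test of a single gene gave p = 0.1 for each of the 6 contrasts, the smallest p the design allows.

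Genes nearly silent in WT enter the tested set only through their KO libraries, so their number and ranks are a description and no measure of rarity. Of the 12228 genes tested without treatment, 21 had at most 1 count over the 3 WT libraries, and by counts in KO Gdf15 was number 3 of them, Fgf21 number 13 and Adm2 number 17. With CMC there were 24 such genes, with Gdf15 number 1, Fgf21 number 12 and Adm2 number 13. In the authors' deposited table, ranked by log2 fold change among 22877 genes, Gdf15 stood at 3 (9.65, SE 1.19), Fgf21 at 14 (7.52, SE 1.23) and Adm2 at 20 (6.90, SE 1.27). That table does not name its direction, which was read from Ptcd1 at -1.93 there.

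Pooling all 12 libraries left 1870 Gdf15 counts in 6 KO libraries and 2 in 6 WT libraries, a ratio of 902 (249 to 7454). For Fgf21 the sums were 214 in KO and 1 in WT, a ratio of 206 (36.7 to 8192). For Adm2 they were 160 and 0, with the KO sum 51.5-fold higher than the floor of 3 counts and an interval that began at 41.4. These intervals cover counting error only, and a ratio to the floor depends on the floor chosen.

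**Figure D1:**
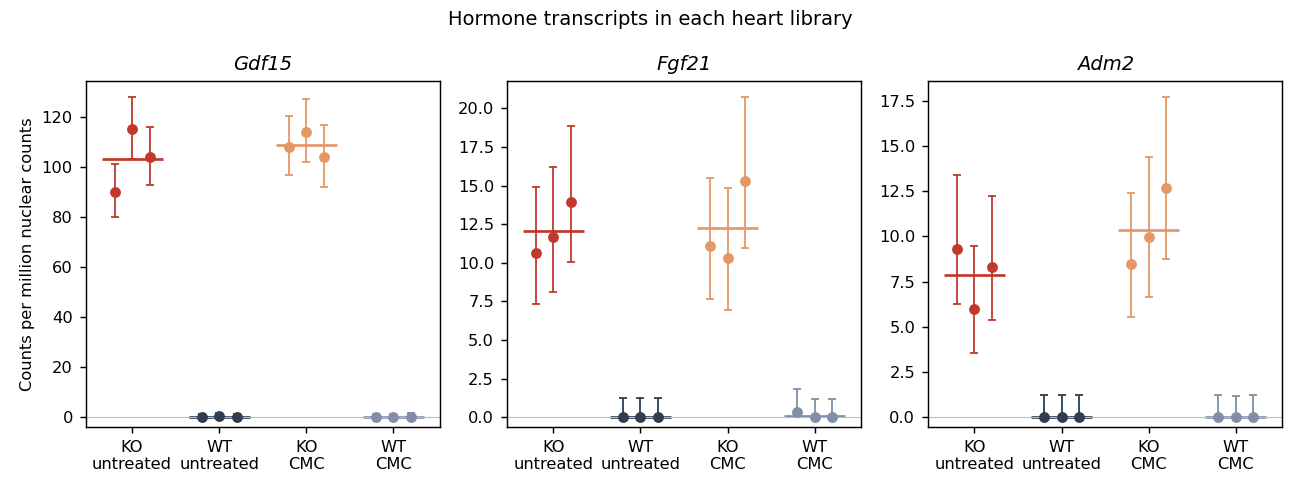
Counts per 1000000 nuclear counts (vertical axis) of each hormone gene in each of the 12 libraries, by group on the horizontal axis; points are libraries with 95% exact Poisson intervals as bars, and the line is the mean of 3. All KO points lie above all WT points for each gene, and KO points with and without CMC overlap.

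**Figure D2:**
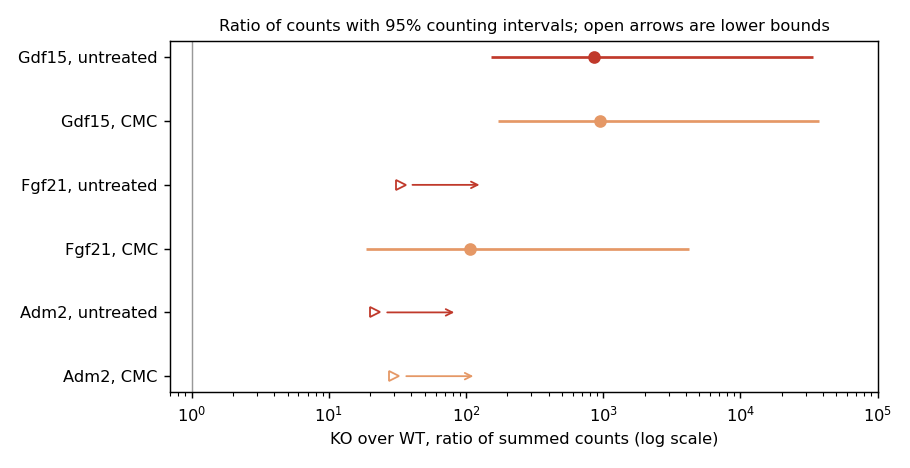
Ratio of summed counts, KO over WT, on a log axis, with 95% exact counting intervals. Open arrows, named lower bounds in the title, stand at the ratio to a floor of 3 counts over the WT group. Their counting intervals begin lower, and the interval of Gdf15 without treatment begins at 153.

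Levels per 1000000 nuclear counts put Gdf15 far above the other hormones. Gdf15 averaged 103 ± 12.5 in untreated KO and 0.113 ± 0.196 in untreated WT libraries, and 108.7 ± 5.04 in KO and 0.109 ± 0.190 in WT libraries with CMC (SD, n = 3 each). Fgf21 averaged 12.1 ± 1.70 in untreated KO and 0 in untreated WT libraries, and 12.2 ± 2.67 in KO and 0.110 ± 0.190 in WT libraries with CMC. Adm2 averaged 7.87 ± 1.71 in untreated KO and 10.4 ± 2.13 in KO libraries with CMC, and was at 0 in WT libraries of both treatments. For each gene the order of the groups was thus KO with CMC, KO untreated, then both WT groups, and neither the KO neighbours nor the WT neighbours in that order differed beyond their spread.

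Counts per 1000000 nuclear counts and kilobase of exon allow the genes to be compared with each other. In untreated KO libraries these levels were 55.6 ± 6.77 for Gdf15, 12.7 ± 1.79 for Fgf21 and 7.55 ± 1.64 for Adm2 (SD, n = 3). Among the 15131 nuclear protein-coding genes detected there, Gdf15 ranked 635 from the top with 95.8% of genes below it, Fgf21 ranked 3019 with 80.0% below and Adm2 ranked 4777 with 68.4% below. In untreated WT libraries the single Gdf15 read ranked 14228 of 15097 detected genes. Gdf15 thus stood near the bottom of the detected range in WT hearts and near its top in KO hearts, while Fgf21 and Adm2 were not detected in untreated WT hearts.

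Within one library, Gdf15 was the most abundant of the hormone genes per length in all 6 KO libraries. It was 4.36, 5.08 and 3.83 times as abundant as Fgf21 in the untreated KO libraries, and 5.01, 5.67 and 3.49 times in KO libraries with CMC. Fgf21 was 1.25, 2.13 and 1.84 times as abundant as Adm2 in the untreated KO libraries, and 1.43, 1.14 and 1.32 times with CMC. The order Gdf15, Fgf21, Adm2 held in each of these 6 libraries.

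The spread between KO replicates was close to counting error for Fgf21 and Adm2, and above it for Gdf15 without treatment. Without treatment the coefficient of variation was 12.2% for Gdf15, against 5.65% for counting error. For Fgf21 it was 14.1% against 16.5%, and for Adm2 21.7% against 20.4%. With CMC the observed values were 4.63%, 21.8% and 20.5%, against 5.68%, 17.0% and 18.5% for counting error.

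Between KO libraries with and without CMC, the hormone transcripts did not differ beyond counting error. The ratio of KO libraries with CMC to untreated KO libraries was 1.07 for Gdf15 (95% counting interval 0.974 to 1.17), 1.02 for Fgf21 (0.771 to 1.34) and 1.32 for Adm2 (0.953 to 1.82), with overlapping ranges. Exact two-sided permutation tests gave p = 0.4, p = 0.9 and p = 0.2. edgeR log2 fold changes were 0.09 for Gdf15 (95% interval -0.05 to 0.24, adjusted p = 0.481), 0.03 for Fgf21 (-0.39 to 0.44, adjusted p = 0.960) and 0.40 for Adm2 (-0.08 to 0.88, adjusted p = 0.322). In this comparison 12.3% of 11911 tested genes were called in either direction, 0 of them hormone genes. At an unadjusted p under 0.05 edgeR also called 0 of them. DESeq2 did not call Gdf15 (adjusted p = 0.665) and gave Fgf21 and Adm2 no adjusted p.

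The CMC effect in WT could not be tested for the hormones, which failed the count filter there. The difference of the KO effect between CMC and untreated libraries was 0.15 with an SE of 1.75 for Gdf15 (adjusted p = 0.989) and -1.84 with an SE of 1.63 for Fgf21 (adjusted p = 0.697). For Adm2, at 0 in both WT groups, it had no usable SE. With so few WT reads these intervals are too wide to show that the effects are alike. Of 12788 genes tested, 1.46% were called for this difference.

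Receptors for these hormones moved in both directions, and several were at or near 0 counts in the heart. Of 12 receptor and co-receptor genes, 6 passed the count filter in untreated libraries. Of these 1 rose in KO, 3 fell and 2 did not pass, and their median on the log2 scale was -0.28 against -0.00 over all tested genes. Called higher or lower were 57.9% of all genes tested without treatment (28.7% lower), so the share of receptors called, 4 of 6, is near that background. With CMC, 1 of 6 tested rose and 4 fell, where 54.3% of all tested genes were called and 27.2% were lower.

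For the GDF15 pathway, Gfral had 0 counts in all 12 libraries. Ret, the signalling partner, was counted 17, 11 and 7 times in untreated KO libraries, against 36, 30 and 28 times in untreated WT libraries. It fell without overlap of the groups, with a log2 fold change of -1.55 (SE 0.28, edgeR adjusted p = 1.96e-07), and with CMC it fell by 1.70 (adjusted p = 1.10e-05).

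For the FGF21 pathway, the co-receptor Klb had 6 counts over the 3 untreated KO libraries and 3 over the 3 untreated WT libraries, and was too low to test. Fgfr3, an FGF receptor, was counted 81, 92 and 101 times in untreated KO libraries, against 19, 15 and 23 times in untreated WT libraries. It was the receptor that rose, with no overlap and a log2 fold change of 2.12 (SE 0.19, edgeR adjusted p = 8.97e-23), and it was 1.74 with CMC (adjusted p = 5.41e-10). Fgfr1 had 352 counts over the untreated KO libraries and 374 over the untreated WT libraries, with a log2 fold change of -0.23 (adjusted p = 0.0670). With CMC Fgfr1 fell by 0.39 (adjusted p = 0.00474), a call that was lost without replicate 2 of the KO libraries with CMC (adjusted p = 0.0743). Fgfr2, with 18 counts in KO and 26 in WT, could not be tested, and Fgfr4 had at most 2 counts in any group.

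For the ADM2 pathway, Calcrl, the receptor proper, had 434 counts over the untreated KO libraries and 500 over the untreated WT libraries, and fell by 0.34 on the log2 scale (SE 0.10, edgeR adjusted p = 0.00121). Ramp1, the partner that makes a receptor for calcitonin gene-related peptide, was counted 4, 6 and 5 times in untreated KO libraries, against 26, 30 and 20 times in untreated WT libraries. Its groups did not overlap, and it fell by 2.45 (SE 0.35, adjusted p = 1.83e-10), and by 1.98 with CMC (adjusted p = 6.86e-06). Ramp2, the partner that favours adrenomedullin, had 182 counts in KO and 147 in WT, with a log2 fold change of 0.17 (adjusted p = 0.392). Ramp3 had 22 counts in KO and 12 in WT and was not tested, and Calcr had 0 counts throughout.

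**Figure D3:**
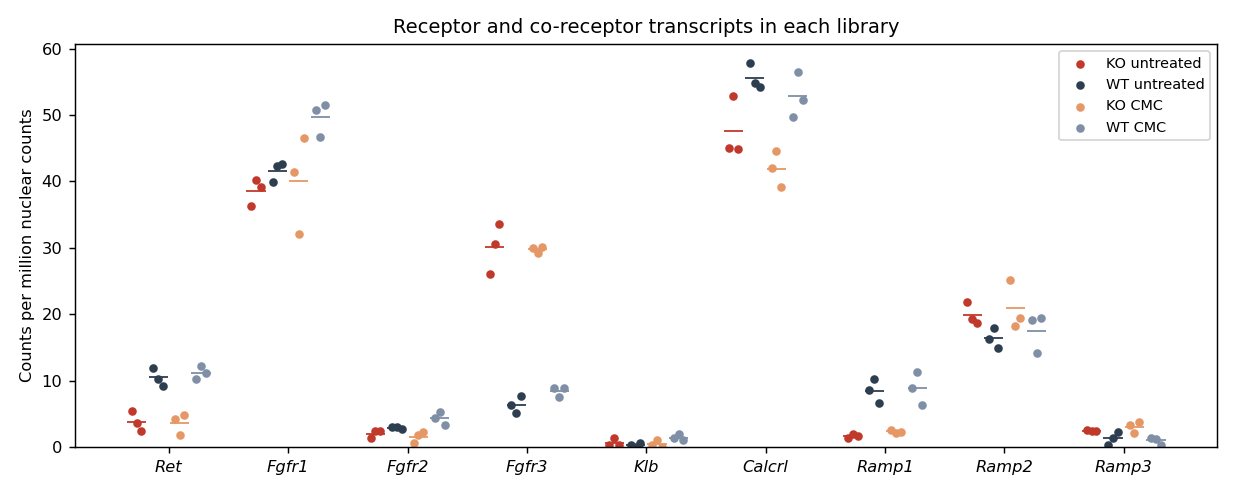
Counts per 1000000 nuclear counts (vertical axis) of the receptor and co-receptor genes with at least 10 counts over the 12 libraries; points are libraries, the line is the mean of 3, and colours are the 4 groups. Fgfr3 is higher in all KO libraries, and Ret and Ramp1 are lower in all KO libraries.

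Relatives of the hormones were mostly too low to test. Of 15 family members 4 could be tested in untreated libraries, of which 1 rose; the other 3 did not pass, and the median on the log2 scale was -0.16. The share that rose is near the 29.2% of all tested genes. Adm, the adrenomedullin gene and the closest abundant relative of Adm2, had 71 counts in KO and 73 in WT, with a log2 fold change of -0.18 (SE 0.25, edgeR adjusted p = 0.561). Gdf11, a relative of GDF15 with wide expression, had 34 counts in KO and 39 in WT (log2 fold change -0.33, adjusted p = 0.423). The gene that rose was Gdf6, a bone morphogenetic protein relative, with 58 counts in KO and 3 in WT (log2 fold change 3.98, adjusted p = 2.33e-11); it was named after its values were seen. Fgf15 and Fgf23, the other endocrine FGFs, and Iapp had 0 counts in all libraries.

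Enzymes that mature or clear such peptides were all abundant enough to test. Of 6 tested, 0 rose, 2 fell and 4 did not pass without treatment, and the share that fell is near the 28.7% of all tested genes. Pcsk6, a proprotein convertase that cleaves precursors of secreted factors, was counted 119, 129 and 110 times in untreated KO libraries, against 215, 228 and 223 times in untreated WT libraries. It fell by 1.03 on the log2 scale (SE 0.09, edgeR adjusted p = 5.84e-22) and by 1.34 with CMC (adjusted p = 3.62e-11), with no overlap of groups. Pam, which amidates the tail of peptides such as ADM2, fell by 0.09 (adjusted p = 0.00814), a call lost under DESeq2 (adjusted p = 0.0851), in 1 fit of all libraries, and without replicate 1 or 2 of the untreated KO or replicate 2 of the untreated WT libraries. The direction of Pam without treatment is not settled. Levels per 1000000 nuclear counts put every gene of KO 0.12 higher on the log2 scale without treatment and 0.08 higher with CMC. At those levels Pam averaged 2018 in KO and 1974 in WT without treatment, which turns it round, but 2032 in KO and 2073 in WT with CMC.

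Most regulators of the integrated stress response rose in KO. Of 17 tested without treatment, 12 rose, 2 fell and 3 did not pass (of all tested genes 29.2% were called higher and 28.7% lower), around a median of 1.45 on the log2 scale, and with CMC the median was 1.53. Atf4, the central transcription factor, was counted 2131, 2104 and 2012 times in untreated KO libraries, against 246, 251 and 238 times in untreated WT libraries. The groups were far apart, with a log2 fold change of 2.95 (SE 0.05, edgeR adjusted p = 3.78e-142). Of the other factors, Atf3 rose by 6.10, Trib3 by 6.08 and Ddit3 by 3.49, and the remaining 8 that rose did so by less than Atf4. The 2 that fell, Dele1 and Oma1, are the relay protein and the protease that pass mitochondrial stress to this response. Dele1 fell by 1.0 on the log2 scale, and Oma1 fell by 0.36, a call lost under DESeq2 (adjusted p = 0.0849) and without replicate 2 of the untreated KO libraries (adjusted p = 0.0833). Both were named after their values were seen.

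Of 20 target genes of the same response, 19 rose and 1 fell without treatment, where 29.2% of all tested genes were called higher and 28.7% lower. The median change on the log2 scale was 3.84 without treatment and 4.17 with CMC. Asns, which makes asparagine, was counted 1002, 1075 and 1018 times in untreated KO libraries, against 9, 11 and 10 times in untreated WT libraries (log2 fold change 6.53, SE 0.11). Mthfd2, of mitochondrial folate metabolism, was counted 611, 578 and 581 times in KO, against 2, 5 and 2 times in WT (log2 fold change 7.42, SE 0.16). The cystine carrier Slc7a11 had 942 counts in KO and 3 in WT, a ratio of 285 (95% counting interval 97.3 to 1385). The amino acid carrier Slc7a3 had 258 in KO and 1 in WT, a ratio of 234 (41.7 to 9289). The gene that fell was Vldlr, a lipoprotein receptor, by 1.78 on the log2 scale. The CARE letters stood in 5 of the 17 target genes with a RefSeq promoter (Asns, Chac1, Pycr1, Slc7a11 and Vldlr) and in 3 of 15 regulators (Atf3, Nupr1 and Jdp2), against 3.91% of 27025 genes. They stood in 1 of 9 receptors, 1 of 14 endoplasmic reticulum stress genes and 0 of the members with a promoter of the other lists given here, apart from Fgf21 itself.

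Endoplasmic reticulum stress can also switch on these hormones. Of 14 genes of that response tested, 7 rose, 1 fell and 6 did not pass without treatment, around a median of 0.21. The share called either way is near the 57.9% of all tested genes, but more rose than fell, where 29.2% of all tested genes were called higher and 28.7% lower. With CMC 9 rose and 1 fell, against 27.1% and 27.2%. Dnajb9, a chaperone partner, rose by 1.21, the factor Xbp1 by 0.70, the mannosidase-like Edem1 by 0.67 and the degradation factor Herpud1 by 0.56. The one that fell, Hsp90b1, did so by 0.10, which DESeq2 did not call (adjusted p = 0.113), which was lost with no filter on low counts, in 1 fit of all libraries, and without replicate 1 or 2 of the untreated KO or replicate 2 of the untreated WT libraries, and which turns round on the scale of nuclear counts.

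Gdf15 is also known as a target of p53. Of 9 other p53 targets tested, 7 rose and 2 fell, and the median on the log2 scale was 1.20, where 29.2% of all tested genes were called higher and 28.7% lower. Cdkn1a, the cell cycle inhibitor p21, was counted 94, 109 and 107 times in untreated KO libraries, against 12, 16 and 11 times in untreated WT libraries. It rose by 2.84 with no overlap (SE 0.20, edgeR adjusted p = 1.29e-32). Phlda3 rose by 2.08, Aen by 1.28 and Eda2r by 1.26. Ccng1 fell by 0.85 and Sesn1 by 0.22, and DESeq2 did not call Sesn1 (adjusted p = 0.0568).

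Of 11 tested genes for other factors that can act on the hormones, 6 rose and 4 fell, with a median of 0.51 on the log2 scale, against 29.2% and 28.7% of all tested genes. The orphan nuclear receptor Nr4a1 rose by 2.43, the hypoxia factor Hif1a by 1.44 and the antioxidant factor Nfe2l2 by 0.96. Mlxipl, the carbohydrate response factor known to act on Fgf21 in liver, fell by 1.51.

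Genes that respond to FGF receptors were tested too. Of 12 without treatment, 7 rose, 0 fell and 5 did not pass, around a median of 0.55 on the log2 scale; with CMC 5 rose, 1 fell and 6 did not pass. The share called either way without treatment is near the 57.9% of all tested genes. All of those called rose, where 29.2% of all tested genes were called higher and 28.7% lower. Dusp4, a phosphatase that dampens MAP kinases, was counted 133, 166 and 138 times in untreated KO libraries, against 8, 6 and 5 times in untreated WT libraries. It rose by 4.36 with no overlap (SE 0.21, edgeR adjusted p = 4.41e-53). Fos rose by 1.90, Etv5 by 1.69 and Egr1 by 0.93.

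Other secreted factors of the heart moved in both directions. Of 27 tested, 12 rose, 9 fell and 6 did not pass, around a median of 0.46, where 29.2% of all tested genes were called higher and 28.7% lower. Ostn, which encodes the peptide musclin, was counted 102, 119 and 110 times in untreated KO libraries, against 0 in each untreated WT library. Its KO sum was 100-fold higher than the floor of 3 counts, with a counting interval that began at 81.0. Angpt1, a ligand that steadies blood vessels, was counted 46, 24 and 45 times in untreated KO libraries, against 557, 498 and 561 times in untreated WT libraries. It fell by 3.95 on the log2 scale (SE 0.10, edgeR adjusted p = 4.75e-106). The matrix protein Ccn2 rose by 3.63 and Nppb, the natriuretic peptide B gene, by 3.48.

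**Figure D4:**
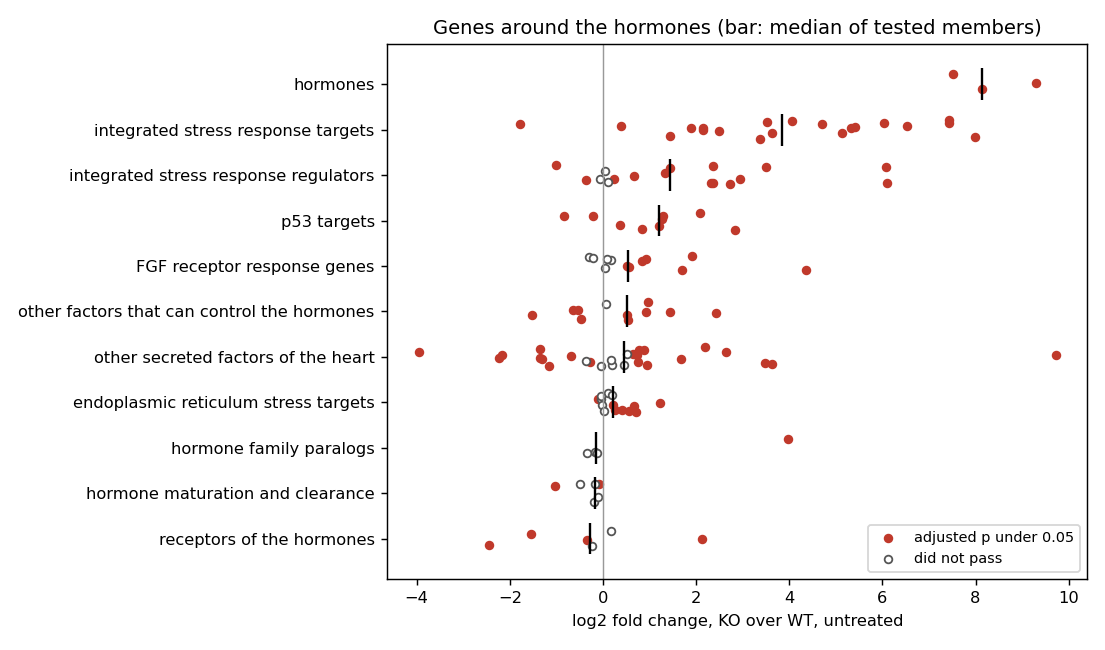
log2 fold change, KO over WT, without treatment (horizontal axis), for each tested gene of the lists down the page; filled points passed an adjusted p of 0.05, open points did not, and the bar is the median of the tested members. The hormones lie at 7.52 to 9.30, beside stress response targets with a median of 3.84 and receptors with a median of -0.28.

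Genes beside the hormones on the chromosome had smaller fold changes or too few counts to test. Of the 2 nearest genes on each side of Gdf15, Pgpep1 had 408 counts in KO and 300 in WT without treatment (log2 fold change 0.30, edgeR adjusted p = 0.0151, lost under DESeq2 at 0.122 and without replicate 2 of either untreated group), Lsm4 did not pass (0.10, adjusted p = 0.614), and Lrrc25 and Gm45546 were too low to test. Around Fgf21, Bcat2 did not pass (-0.22, adjusted p = 0.166). Fut1, whose start lies at -1799 bases from that of Fgf21 on the opposite strand, had 7 counts over the untreated KO group and 0 over the untreated WT group, and with CMC 8 over KO and 0 over WT. Izumo1 had 2 in KO and 7 in WT, and Gm31479 had 0.

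Next to Adm2, Sbf1, an inactive relative of the myotubularin phosphatases, had 1615 counts in KO and 565 in WT and rose by 1.38 (SE 0.07, edgeR adjusted p = 4.84e-50). Lmf2 did not pass (0.26, adjusted p = 0.135; it did without KO replicate 3, adjusted p = 0.0256), Miox had 2 counts in KO and 0 in WT, and Mir6959 had 0. Within 100 kb of the 3 genes, 19 genes were tested, of which 7 rose and 3 fell, near the 57.9% of all genes that were called. DESeq2 did not call Ell, Isyna1, Plekha4 or Pgpep1 among them. The one with the largest log2 fold change there, 2.74, was Ppp1r15a, near Fgf21, which encodes a stress response phosphatase subunit and is on the regulator list; it was named after its values were seen.

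**Figure D5:**
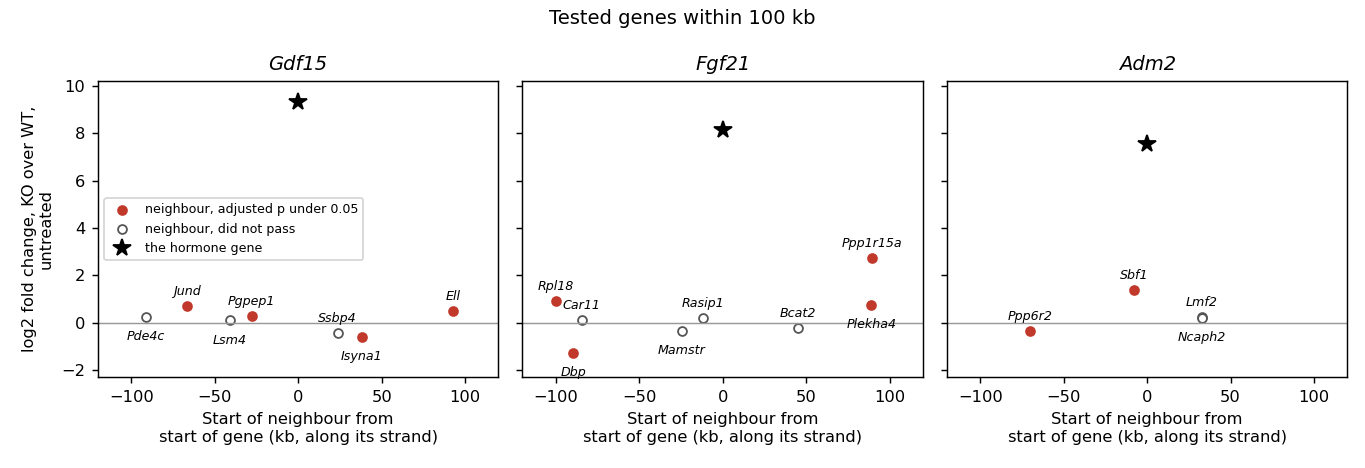
log2 fold change, KO over WT, without treatment (vertical axis) of each tested gene within 100 kb, by the distance between its start and that of the hormone gene (horizontal axis, kb along the strand of the hormone gene). Stars are the hormone genes at 9.30, 8.13 and 7.52, and no neighbour exceeds 2.74.

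Across the 12 libraries the genes most like each hormone were found by Pearson's r of log2 counts per 1000000 over 12788 genes, a description that mostly carries the split between KO and WT and the shared depth of the libraries. For Gdf15 they were Dmxl2 (0.9989), Rrp12 (0.9987), Abra (0.9987), Aldh1l2 (0.9986) and Uck2 (0.9986). For Fgf21 they were Mthfd2 (0.996), Acox2 (0.9957), Sqstm1 (0.9955), Col4a1 (0.9953) and B4galnt2 (0.9952). For Adm2 they were Ighg1 (0.9963), B4galnt2 (0.9961), Ccn2 (0.996), Tgm2 (0.9957) and Cdv3 (0.9955). The hormones themselves correlated at 0.9916 (Gdf15 with Fgf21), 0.991 (Gdf15 with Adm2) and 0.9914 (Fgf21 with Adm2), and 160 genes were more like Gdf15 than Fgf21 was.

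Markers of cell types moved in both directions between KO and WT hearts. Of all tested genes 29.2% were called higher and 28.7% lower without treatment, and 27.1% and 27.2% with CMC. The shares of macrophage and endothelial markers called without treatment are near the 57.9% of all tested genes called either way. The summed level of 6 cardiomyocyte markers ran from 34397 to 34777 per 1000000 nuclear counts in untreated KO libraries and from 66371 to 68452 in untreated WT libraries, and all 6 markers fell. With CMC their sums ran from 37460 to 38171 in KO and from 66628 to 71688 in WT libraries. Fewer cells of a type and less RNA per cell cannot be told apart in whole tissue. Macrophage markers summed to 273 to 284 in KO and 207 to 214 in WT, where 3 of 6 rose and 3 did not pass. Fibroblast markers summed to 1966 to 1989 in KO and 1782 to 1889 in WT, where 3 of 5 tested rose and 2 fell, and adipocyte markers summed to 23.0 to 31.9 in KO and 42.2 to 44.6 in WT. Pericyte and smooth muscle markers summed to 1534 to 1583 in KO and 1786 to 1871 in WT, where 4 of 6 fell. Endothelial markers summed to 1109 to 1148 in KO and 1072 to 1131 in WT, where 1 of 6 rose and 3 fell. All these sums are on the scale of nuclear counts. Without treatment that scale puts every gene of KO 0.12 higher on the log2 scale than the scale of the calls. The direction of the fibroblast and endothelial sums is therefore not settled. Skeletal muscle markers summed to 5.31 to 9.01 in KO and 1.02 to 1.33 in WT, and none of them passed the count filter; with no filter 2 of 5 were called higher, and in 1 fit of all libraries 1 was. Red cell markers summed to 437 to 458 in KO and 460 to 641 in WT, where 4 of 5 fell (2 under DESeq2), and with CMC all 5 fell. The markers of hepatocytes, the cells known as the main source of FGF21, summed to at most 0.333 in untreated KO libraries, where 5 of 6 were at 0, and all 6 were at 0 in untreated WT libraries. What part the shifts of the other cell markers have in the hormone counts was not tested.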

How the data were processed

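Total RNA libraries of mouse hearts were depleted of cytoplasmic ribosomal RNA with Ribo-Zero and made with TruSeq chemistry, per the labels' protocols. The submitters' processing notes name HISAT2 2.0.5, SAMtools 1.5, featureCounts 1.5.1, DESeq2 1.16.1 and the mm10 genome, with no role for each. The deposited tables hold raw counts per gene, in the columns featureCounts writes, in 1 table for the untreated and 1 for the CMC libraries. Whether counting used strand is not stated there. The authors' deposited table of comparisons gives for each gene a base mean (a score of normalized abundance), a log2 fold change with its SE, and p-values before and after adjustment, and was used only where named. Gene positions came with the deposited counts on mm10, and gene symbols from a reference annotation. Of the 51911 features, 51632 had a symbol and 279 did not.

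Each comparison of 2 groups used its 6 libraries (filterByExpr, TMM over all genes, edgeR 4.0.16 quasi-likelihood test in R 4.3.3, Benjamini-Hochberg over all tested genes, called at an adjusted p under 0.05). The difference of effects came from 1 fit of all 12. The SE of an edgeR log2 fold change was computed back from that change and the F statistic of its test. It is not a fitted error, and near 0 counts it can be smaller than counting error alone allows. Sums of counts have exact Poisson intervals, and ratios of sums exact conditional binomial intervals at 95%, scaled by TMM effective library sizes. The precision for these genes is set by 2683284 to 3187748 nuclear counts per library, and a group at 0 was given a floor of 3 counts over its 3 libraries. Replicates were checked for twice-deposited libraries by a chi-square test of counts, whose statistic per degree of freedom was 1.12 to 2.43 in pairs of replicates, so each was counted on its own. That check finds copies only, and cannot tell separate animals from repeat libraries of 1 animal. The edgeR step was tested on simulated data with modest changes in well-counted genes, which does not cover genes near 0 in a group. DESeq2 1.42.0, other scalings, no filter, a replicate block, 1 fit of all libraries and leaving out each library were alternatives.

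The members and lists were chosen with earlier results of these data known. The rule for named genes took the 3 members, Ptcd1, every receptor with at least 10 counts over the 12 libraries, up to 4 called members of each list with the largest changes (the 2 most abundant where fewer than 2 were called), the 2 nearest genes on each side of each member, and the 5 genes most alike in log2 abundance (counts per 1000000, prior count 2). Genes within 100 kb were added after the data were seen. Motifs were searched on both strands of RefSeq promoters.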

Additional observations from a re-analysis of the deposited data

Results flagged for a closer look

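The KO effect on 2 named genes differed between libraries with and without CMC, in the test of the difference itself (edgeR, fit of all 12 libraries). For Nppb, the natriuretic peptide B gene, the difference was -0.56 on the log2 scale (SE 0.09, adjusted p = 0.000139), with log2 fold changes of KO over WT of 2.91 with CMC and 3.48 without treatment. The effect of CMC on Nppb was -0.21 in KO and 0.35 in WT. For Rpl18, a ribosomal protein gene within 100 kb of Fgf21, the difference was -0.48 (SE 0.11, adjusted p = 0.00651), with log2 fold changes of KO over WT of 0.45 with CMC and 0.94 without treatment. Both genes were called higher in KO in both treatments. The hormone genes were tested for the same difference and none passed, with SEs of 1.63 or more for Gdf15 and Fgf21 and no usable SE for Adm2.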

How the results depend on the processing

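The 3 hormone genes kept their direction and their call in KO against WT, with and without CMC, under every alternative run. The highest adjusted p was 2.08e-07 without treatment and 3.98e-07 with CMC, both under DESeq2. Of 187 alternative values for the comparisons, 178 kept the reported direction and side of the threshold, or moved less than the spread. The other 9 are ratios to the floor, which depend on how many WT libraries stay in. Leaving out 1 library at a time, the ratio to the floor of Fgf21 without treatment lay between 22.1 and 35.3. That of Adm2 lay between 14.5 and 24.3 without treatment and between 19.6 and 32.9 with CMC. Scaling by nuclear counts gave ratios of 925 for Gdf15 without treatment and 1008 with CMC. Among named genes and list counts 2545 of 2661 alternatives did so and 0 reversed.

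Same-number deviations correlated at -0.159 to 0.068 over 4863 genes. The own number gave the highest correlation in 3 of 12 such pairs, all between CMC and untreated libraries of one genotype. Spread between untreated replicates was near counting error (chi-square per degree of freedom 1.12 to 1.21). These correlations therefore cannot tell whether libraries of one number share a heart. With a replicate block the log2 fold changes without treatment were 9.30 for Gdf15, 8.14 for Fgf21 and 7.52 for Adm2, with 3556 genes called higher and 3483 lower.

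The counts of genes called for CMC depended on the tool and on single libraries. In KO, DESeq2 called 378 higher and 211 lower, against 816 and 645 by edgeR. In WT, 110 were called higher and 150 lower, and the counts lay between 18 and 330 and between 52 and 413 when a library was left out; DESeq2 called 27 and 55, and 1 fit of all libraries 194 and 242. For the difference of effects, 137 higher and 50 lower calls became 83 and 24 with DESeq2, 413 and 221 without WT replicate 3 with CMC, and at least 55 and 28 with other libraries left out. The cause was not tested. The depth limits the hormones most in WT, where 0 to 1 read per library leaves only bounds.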
